A study of Mus musculus with 12 samples.

Results

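The AP-1 transcription factor genes measured here were Fos, Fosb, Fosl1, Fosl2, Jun, Junb, Jund, Batf and Jdp2. They were picked by gene symbol from the probe sets of the array, each gene had 1 probe set, and together they made 9 of the 19505 genes measured. RNA came from RAW 264.7 cells, a mouse macrophage-like line transformed with Abelson leukaemia virus, and was hybridised to 12 Affymetrix arrays in 4 groups of 3. All 4 groups received LPS (lipopolysaccharide, a bacterial outer membrane component that activates macrophages) at 500 ng/mL. The Inulin+TsSP+LPS group also received inulin, a plant fructan, at 500 µg/mL and TsSP at 50 µg/mL. The TsSP+LPS group received TsSP and LPS, the Inulin+LPS group inulin and LPS, and the LPS group LPS alone. TsSP is given as the labels have it, and the series' design text speaks of helminth products. Cells were cultured for 6 hours at 37°C in 5% CO2. All groups carried LPS, so the values describe LPS-stimulated cells of a single line, with no unstimulated level.

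AP-1 is a family of dimers of basic leucine zipper (bZIP) proteins that bind the DNA site TGANTCA, where N is any base. Fos proteins need a partner of the Jun family to bind, while Jun proteins can also pair with each other. In macrophages, LPS signals through MAP kinases that raise the transcription of Fos and Jun genes and phosphorylate their products, and AP-1 then acts with NF-kB on inflammatory genes. Junb is known as a weaker activator than Jun at many sites, Jdp2 as a repressor that pairs with Jun proteins, and Batf as a factor without an activation domain that works with IRF proteins.

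The promoters of Fos, Jun and Junb are shown because these genes gave the largest rise, the smallest called rise and the only fall with TsSP among the members. Each sequence is the 250 bases before the annotated start, 5′ to 3′ on the gene's strand, from RefSeq on build GRCm38.p6. Capitals mark matches to the motifs listed after them.
Fos, chr12:85473640-85473889, plus strand: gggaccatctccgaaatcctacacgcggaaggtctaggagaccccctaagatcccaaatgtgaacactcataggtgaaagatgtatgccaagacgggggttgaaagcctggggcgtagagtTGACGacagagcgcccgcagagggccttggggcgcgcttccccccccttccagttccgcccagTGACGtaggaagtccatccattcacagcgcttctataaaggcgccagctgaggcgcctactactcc
Jun, chr4:95052223-95052472, minus strand: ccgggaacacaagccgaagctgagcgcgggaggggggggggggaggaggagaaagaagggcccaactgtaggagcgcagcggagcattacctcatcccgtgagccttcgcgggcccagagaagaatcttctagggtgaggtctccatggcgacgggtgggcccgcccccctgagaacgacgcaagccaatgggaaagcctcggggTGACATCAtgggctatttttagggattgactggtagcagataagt
Junb, chr8:84978749-84978998, minus strand: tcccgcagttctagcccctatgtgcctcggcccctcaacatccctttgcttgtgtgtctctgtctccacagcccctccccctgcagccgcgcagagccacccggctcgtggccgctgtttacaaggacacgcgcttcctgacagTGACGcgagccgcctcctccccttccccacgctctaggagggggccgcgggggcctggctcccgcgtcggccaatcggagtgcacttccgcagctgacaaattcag
The RefSeq table matched 8 of the 9 members (Fosl1 was the other), in 10 windows. Searched on both strands were the AP-1 site TGANTCA, the cAMP response element TGACGTCA and its core TGACG (which lies within it), the site TGACATCA known from the Jun promoter and, by name, the CArG box bound by SRF. Of 32851 windows of the same length, 6.75% held TGANTCA, 1.55% TGACGTCA, 17.8% TGACG, 2.93% TGACATCA and 1.47% a CArG box. With the base before the start at position -1, the Fos window held TGACG at -129 and -66 and the Jun window TGACATCA at -45. Junb held TGACG at -106, Fosb at -60, Batf at -98 and 1 of the 3 Jdp2 windows at -114. None of the motifs was in the Fosl2 and Jund windows, and no member's window held TGANTCA, TGACGTCA or a CArG box. This says only that these letters are not in the 250 bases, and sequence farther from the start was not searched.

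Array medians over all probe sets lay between 5.16 and 5.30 log2 units, and 8771 to 9059 genes lay above the brightest of the 23 background probes on an array. LPS replicate 1 had the lowest median of all, so several of the members' differences from LPS are also given without it. Of 10 macrophage marker genes, 9 were measured and all were above background on every array, while none of the 8 measured markers of T cells, B cells, granulocytes, mast cells, fibroblasts and epithelium was above background on all 3 arrays of any group. The labels do not say whether replicate arrays stem from separate cultures, so p-values reflect the array-to-array spread alone, which may be technical, and 3 arrays a group limit the precision.

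With TsSP in addition to LPS, 5 of the 9 members were higher (Fos, Fosl1, Fosl2, Jun and Jund), 1 was lower (Junb) and 3 did not pass the test (Jdp2, Fosb and Batf). The test was limma over all 19505 genes with a Benjamini-Hochberg adjusted p below 0.05, by which 11.0% of genes were called higher and 7.08% lower. Of the 9022 genes above background in at least 1 group, to which 7 members belong, 21.6% were called higher and 13.3% lower. The 3 arrays of each group did not overlap in 6 of these 7 members, against 55.3% of the genes above background. The median difference of the 9 members was 0.43 log2 units, against 0.019 over all genes. That of the 7 members above background was 0.70, against 0.11 over all genes above background. In extracts of whole cultures, more RNA per cell cannot be told apart from more cells that express a gene.

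**Figure D1:**
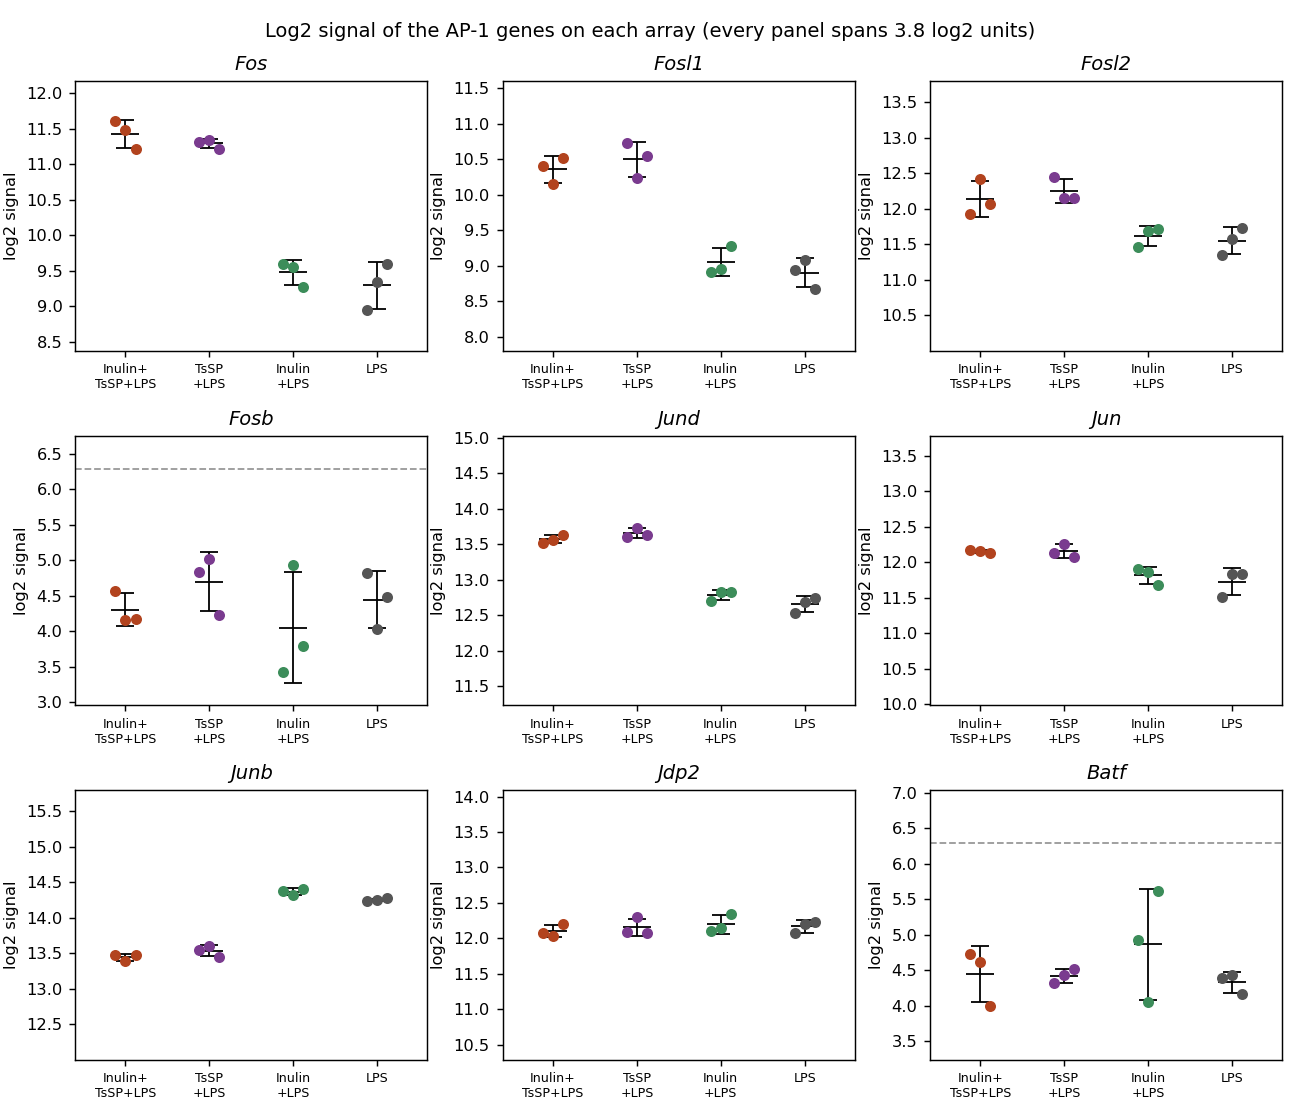
Log2 signal of the AP-1 genes on each of the 12 arrays, by treatment group, with every panel spanning the same number of log2 units. Points are arrays, bars are means ± SD (n = 3) and the dashed lines for Fosb and Batf mark the brightest background probe. The arrays with TsSP lie above those without it in Fos, Fosl1, Fosl2, Jun and Jund, below them in Junb and among them in Jdp2.

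Fos is the founding member of the Fos family and a classic immediate early gene, and it showed the largest difference of the 9. Its log2 signals were 11.60, 11.48 and 11.21 on the Inulin+TsSP+LPS arrays and 11.32, 11.34 and 11.22 on the TsSP+LPS arrays, against 9.60, 9.56 and 9.28 on the Inulin+LPS arrays and 8.94, 9.34 and 9.60 on the LPS arrays. The lowest array with TsSP (11.21) lay well above the highest array without it (9.60), and the arrays of the groups on either side of this gap overlapped. Fos was 4.00-fold higher in TsSP+LPS than in LPS (log2 difference 2.00, SE 0.18, adjusted p = 1.18e-05), and 1.14% of the genes above background had a larger rise. Ordered by mean, Fos stood at 11.43 ± 0.20 in Inulin+TsSP+LPS, 11.29 ± 0.066 in TsSP+LPS, 9.48 ± 0.18 in Inulin+LPS and 9.30 ± 0.33 in LPS (SD, n = 3 each). Neither the pair at the top nor the pair at the bottom of this order differed beyond its spread.

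Fosl1, which encodes the Fos-related protein FRA-1, followed. Its log2 signals were 10.41, 10.15 and 10.52 on the Inulin+TsSP+LPS arrays and 10.72, 10.24 and 10.55 on the TsSP+LPS arrays, against 8.92, 8.96 and 9.27 on the Inulin+LPS arrays and 8.94, 9.08 and 8.68 on the LPS arrays. As with Fos, no array with TsSP reached down to an array without it. The TsSP+LPS group was 3.04-fold higher than the LPS group (log2 difference 1.60, SE 0.17, adjusted p = 5.50e-05), and 2.04% of the genes above background rose further.

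Fosl2 encodes FRA-2, the other Fos-related protein, and moved less. Its log2 signals were 11.93, 12.43 and 12.07 on the Inulin+TsSP+LPS arrays and 12.45, 12.15 and 12.15 on the TsSP+LPS arrays, against 11.46, 11.69 and 11.71 on the Inulin+LPS arrays and 11.35, 11.57 and 11.73 on the LPS arrays. The arrays with TsSP lay above all others, by a margin narrower than the range within a group. Fosl2 was 1.62-fold higher in TsSP+LPS than in LPS (log2 difference 0.70, SE 0.16, adjusted p = 0.0104). Fosb, the remaining Fos family gene, lay below the brightest background probe on all 12 arrays, at 3.42 to 5.02 log2 units, so no fold is given for it (adjusted p = 0.715).

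The Jun genes did not move together: Jund and Jun were higher with TsSP and Junb was lower. Jund, whose product is known as the most evenly expressed Jun protein, had log2 signals of 13.51, 13.56 and 13.63 on the Inulin+TsSP+LPS arrays and 13.61, 13.73 and 13.63 on the TsSP+LPS arrays, against 12.70, 12.82 and 12.83 on the Inulin+LPS arrays and 12.53, 12.69 and 12.74 on the LPS arrays. Its spread within groups was small, and the arrays with and without TsSP stood clearly apart. Jund was 2.01-fold higher in TsSP+LPS than in LPS (log2 difference 1.01, SE 0.11, adjusted p = 5.73e-05).

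Junb was the only member that fell. Its log2 signals were 13.48, 13.39 and 13.47 on the Inulin+TsSP+LPS arrays and 13.55, 13.60 and 13.46 on the TsSP+LPS arrays, against 14.37, 14.32 and 14.41 on the Inulin+LPS arrays and 14.24, 14.25 and 14.27 on the LPS arrays. Every array with TsSP lay below every array without it. Junb was 1.64-fold lower in TsSP+LPS than in LPS (log2 difference -0.72, SE 0.0999, adjusted p = 0.000386), and 7.68% of the genes above background lay lower still.

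Jun, the founding Jun gene and the partner most often studied with Fos, gave the smallest called difference. Its log2 signals were 12.18, 12.16 and 12.13 on the Inulin+TsSP+LPS arrays and 12.14, 12.26 and 12.07 on the TsSP+LPS arrays, against 11.91, 11.86 and 11.68 on the Inulin+LPS arrays and 11.51, 11.84 and 11.84 on the LPS arrays. The arrays with TsSP lay above the others, but close to them, and LPS replicate 1 was the lowest of all. Jun was 1.34-fold higher in TsSP+LPS than in LPS (log2 difference 0.43, SE 0.13, adjusted p = 0.0361), and 25.8% of the genes above background rose further. The median difference of those genes was 0.11. Without LPS replicate 1 the Jun difference was 0.32 with an adjusted p of 0.119, and it also missed the threshold without TsSP+LPS replicate 1 (adjusted p = 0.0810), replicate 2 (0.127) or replicate 3 (0.0584).

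Without LPS replicate 1 the calls of the other moving members held, at log2 differences of 1.82 for Fos, 1.62 for Fosl1, 0.60 for Fosl2, 0.94 for Jund and -0.72 for Junb. The adjusted p of Fosl2 was then 0.0414.

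**Figure D2:**
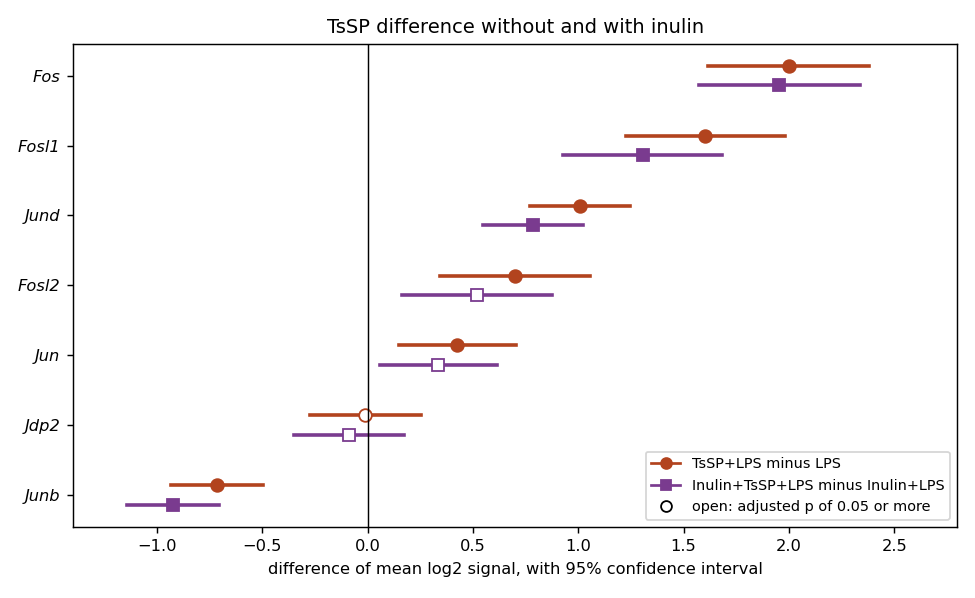
Difference of mean log2 signal with TsSP minus without it, for the 7 AP-1 genes above background, with 95% confidence intervals. One series is TsSP+LPS minus LPS and the other Inulin+TsSP+LPS minus Inulin+LPS. Their means share no array, but the intervals of both come from the same fit over all arrays. Open symbols mark an adjusted p of 0.05 or more. Fos is highest at 2.00 and 1.95, Junb lies at -0.72 and -0.92, and the intervals of Jdp2 span 0.

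Jdp2 and Batf gave no called difference. Jdp2 had log2 signals of 12.07, 12.04 and 12.21 on the Inulin+TsSP+LPS arrays and 12.09, 12.30 and 12.08 on the TsSP+LPS arrays, against 12.10, 12.15 and 12.34 on the Inulin+LPS arrays and 12.07, 12.21 and 12.23 on the LPS arrays. All 4 groups overlapped. The difference of TsSP+LPS from LPS was -0.012 log2 units with a 95% interval of -0.27 to 0.25 (adjusted p = 0.967). Batf lay below the brightest background probe on all 12 arrays, at 3.99 to 5.61 log2 units, and has no fold (adjusted p = 0.899).

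The TsSP difference was also measured in the presence of inulin, as a difference of means on 6 arrays that the difference above did not use. Both comparisons took their SE from the same fit over all arrays, so their p-values are not independent. In Inulin+TsSP+LPS against Inulin+LPS, 3 members were called higher (Fos, Fosl1 and Jund), against 8.66% of all genes and 17.0% of those above background, and Junb was called lower, against 7.99% and 15.4%. Fos was 3.88-fold higher (log2 difference 1.95, SE 0.18, adjusted p = 1.41e-05), Fosl1 2.47-fold higher (1.31, SE 0.17, adjusted p = 0.000254) and Jund 1.72-fold higher (0.79, SE 0.11, adjusted p = 0.000363). Junb was 1.90-fold lower (-0.92, SE 0.0999, adjusted p = 5.95e-05). Fosl2 differed by 0.52 (adjusted p = 0.0503) and Jun by 0.34 (adjusted p = 0.101), so neither passed, although the 3 arrays of each group did not overlap in 6 of the 7 members above background (54.0% of genes above background). Jdp2 differed by -0.090, with an interval of -0.35 to 0.17. With the fit restricted to genes above background, 5 members and 23.5% of genes were called higher, Fosl2 at an adjusted p of 0.0145 and Jun at 0.0254.

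Inulin+TsSP+LPS against LPS uses the same LPS arrays as TsSP+LPS against LPS, so the 2 sets of values are not independent. Here 5 members were called higher and 1 lower, against 10.3% and 7.30% of all genes and 20.3% and 14.0% of those above background. Fos differed by 2.14 log2 units (4.40-fold), Fosl1 by 1.46 (2.74-fold), Jund by 0.92 (1.89-fold), Fosl2 by 0.59 (1.51-fold), Jun by 0.42 (1.34-fold) and Junb by -0.81 (1.75-fold lower). The 3 arrays of each group did not overlap in 6 of the 7 members above background, against 53.3% of such genes. Adjusted p was 7.02e-06 for Fos, 0.0264 for Fosl2 and 0.0374 for Jun. Fosl2 missed the threshold without LPS replicate 1 (0.49, adjusted p = 0.0913), without LPS replicate 2 (0.0600), and without Inulin+TsSP+LPS replicate 2 (0.45, adjusted p = 0.09998) or replicate 3 (0.0533). Jun missed it in 6 of the 12 fits that each left out 1 array, with the highest adjusted p, 0.120, without LPS replicate 1. Those 6 left out LPS replicate 1, TsSP+LPS replicate 1, Inulin+LPS replicate 2, or Inulin+TsSP+LPS replicate 1, 2 or 3.

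Inulin, by contrast, gave no called difference in any member. In Inulin+LPS against LPS, 0 of the 9 members and 0% of genes were called by limma, and at an unadjusted p under 0.05 there were 1143 genes and 0 members. The differences of the 7 members above background ran up to 0.18 log2 units, for Fos, with a 95% interval of -0.20 to 0.57. Fosl1 differed by 0.15 (-0.23 to 0.53), Jund by 0.13 (-0.11 to 0.37) and Junb by 0.12 (-0.10 to 0.33). The Fosl2 difference was 0.072 (-0.28 to 0.43), that of Jun 0.088 (-0.19 to 0.36) and that of Jdp2 0.028 (-0.23 to 0.29). Without LPS replicate 1 the Fos difference was 0.0051, and Fosl2 (-0.027), Jun (-0.020) and Jdp2 (-0.0205) turned negative. Fosl1 (0.17), Junb (0.11) and Jund (0.068) stayed positive. Junb was the only one of the 7 in which the 3 arrays of each group did not overlap, as was so for 10.6% of the genes above background, and its adjusted p was 0.944.

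When inulin was added to TsSP (Inulin+TsSP+LPS against TsSP+LPS), again 0 members and 0% of genes were called, with 971 genes and 0 members at an unadjusted p under 0.05. The groups overlapped in all 7 members above background, against 12.3% of such genes without overlap. Fos differed by 0.14 (-0.25 to 0.52), Fosl1 by -0.15 (-0.52 to 0.23), Fosl2 by -0.11 (-0.47 to 0.25), Jun by -0.0016 (-0.28 to 0.27), Junb by -0.091 (-0.31 to 0.13), Jund by -0.091 (-0.33 to 0.15) and Jdp2 by -0.050 (-0.31 to 0.21). These intervals leave room for differences of up to about 0.5 log2 units in the Fos genes. A missed threshold does not show that inulin left these genes as they were.

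**Figure D3:**
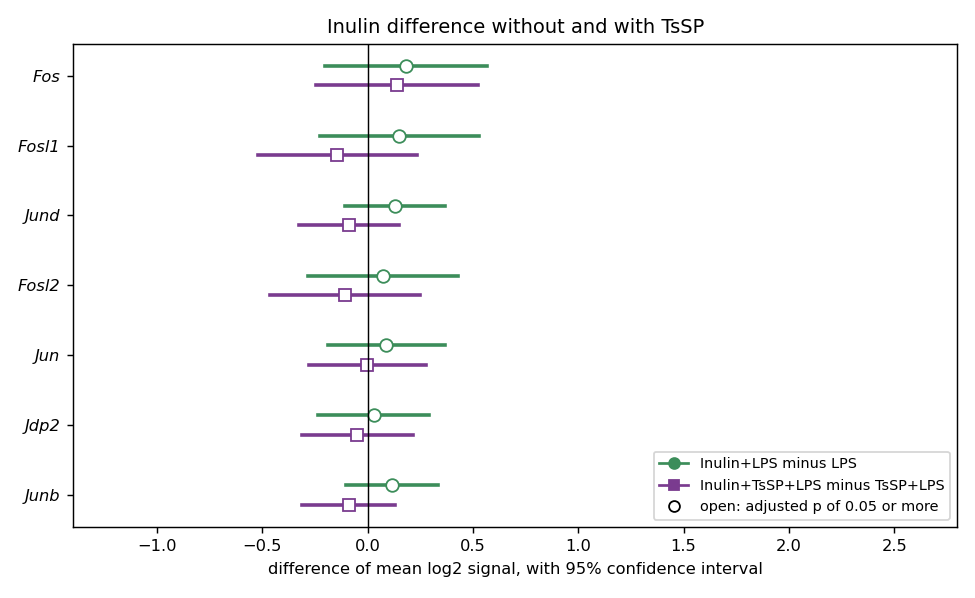
Difference of mean log2 signal with inulin minus without it, for the 7 AP-1 genes above background, with 95% confidence intervals, on the axis of the plot of the TsSP differences. One series is Inulin+LPS minus LPS and the other Inulin+TsSP+LPS minus TsSP+LPS. Every interval spans 0, and the estimate farthest from 0 is 0.18, for Fos.

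Whether the TsSP difference was another with inulin than without it was tested as an interaction, by which 0 members and 0% of genes were called (1089 genes and 0 members at an unadjusted p under 0.05). The smallest adjusted p among the members was 0.963. The estimate was -0.044 for Fos (-0.59 to 0.50), -0.30 for Fosl1 (-0.83 to 0.24), -0.18 for Fosl2 (-0.69 to 0.32), -0.090 for Jun (-0.48 to 0.30), -0.21 for Junb (-0.52 to 0.10), -0.22 for Jund (-0.56 to 0.12) and -0.078 for Jdp2 (-0.45 to 0.29). So the loss of the Fosl2 and Jun calls in the presence of inulin is not shown to be a smaller response there.

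Genes with the closest profiles were named for each member above background, by the root mean square difference of log2 signals over the 12 arrays after each gene was set to its own mean. For Fos these were Pgm1 (0.14), Map4k4 (0.17) and Zswim6 (0.17), and for Fosl1 Tlcd3a (0.14), Map3k14 (0.16) and Fads1 (0.16). For Fosl2 they were Mad2l2 (0.093), Sik3 (0.097) and Rai14 (0.11), and for Jund Hsd17b7 (0.060), Dbi (0.075) and Pf4 (0.080). For Jun they were Rgs19 (0.062), Psma7 (0.069) and Chmp1a (0.072), for Junb Sdad1 (0.053), Gpatch4 (0.061) and Csrp1 (0.066), and for Jdp2 Tmem106a (0.052), Actb (0.071) and Pcbp2 (0.073). All of these profiles share the 12 arrays and their grouping by treatment, and small values come more easily to genes that vary little. Rgs19 and the genes named for Jdp2 were not called in TsSP+LPS against LPS.

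Fos, Jdp2 and Batf lie on chromosome 12 in that order. The nearest measured genes before Fos were Nek9 and Tmed10, and the nearest after Batf were Flvcr2 and Erg28. In TsSP+LPS against LPS, Erg28, which encodes a protein of the sterol synthesis machinery, was 1.97-fold higher (log2 difference 0.98, adjusted p = 6.51e-05), and in Inulin+TsSP+LPS against Inulin+LPS its difference was 0.87 (adjusted p = 0.000166). Tmed10, which encodes a cargo receptor between the endoplasmic reticulum and the Golgi, was 1.32-fold higher in TsSP+LPS than in LPS (0.40, adjusted p = 0.0287), a call lost without LPS replicate 1 or 2 or any 1 of the TsSP+LPS arrays (adjusted p = 0.0612 to 0.0909). In Inulin+TsSP+LPS against Inulin+LPS it differed by 0.27 and did not pass (adjusted p = 0.133). Nek9, a kinase gene, differed by 0.35 (adjusted p = 0.147), and Flvcr2 lay below background on all arrays.

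**Figure D4:**
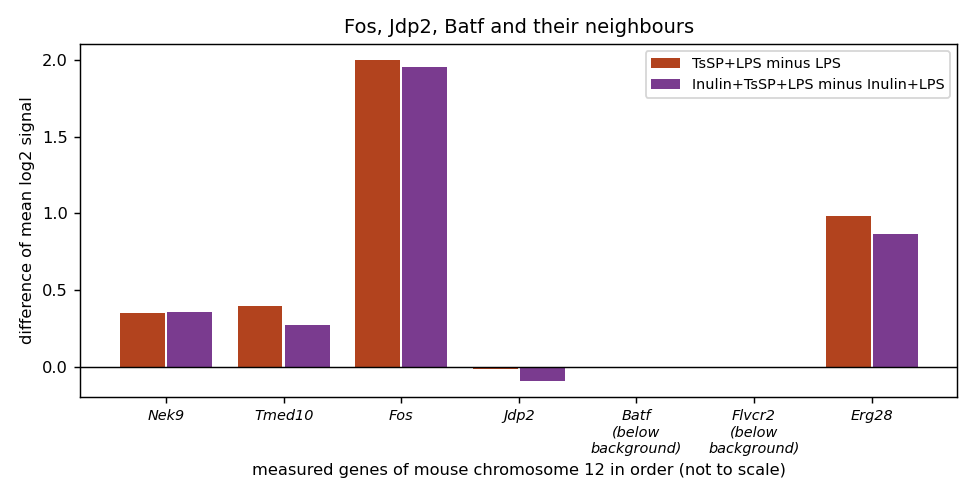
Difference of mean log2 signal with TsSP minus without it for the measured genes around Fos, Jdp2 and Batf, in their order on chromosome 12, without inulin (TsSP+LPS minus LPS) and with it (Inulin+TsSP+LPS minus Inulin+LPS). No bar is drawn for Batf and Flvcr2, which lay below background on all arrays. Fos reaches 2.00 and 1.95 and Erg28 0.98 and 0.87, while Jdp2 stays near 0.

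Of 15 listed bZIP genes whose products pair with or resemble AP-1 proteins, 13 were measured and 10 were above background. In TsSP+LPS against LPS 1 was called higher, 5 lower and 7 not, at a median of -0.056 against 0.019 over all genes. The 10 above background had a median of -0.25, against 0.11 over all genes above background. Of all genes 11.0% were called higher and 7.08% lower, and of those above background 21.6% and 13.3%. Batf2, an interferon-inducible relative of Batf, was 4.52-fold lower (log2 difference -2.18, SE 0.12, adjusted p = 3.98e-07). Atf3, an LPS-inducible repressor of inflammatory genes, was 2.38-fold lower (-1.25, SE 0.10), Ddit3, the stress factor CHOP, 2.30-fold lower (-1.20, SE 0.12), and the small Maf gene Mafk 2.47-fold lower (-1.31, SE 0.18). Maf was 1.36-fold lower (adjusted p = 0.0430), a call lost in 10 of 12 fits without 1 array (all but LPS replicate 1 and Inulin+TsSP+LPS replicate 2, adjusted p up to 0.147). Maff was called higher (adjusted p = 0.0131) but has no fold, as it was above background on 2 of 3 TsSP+LPS arrays and 0 of 3 LPS arrays. In the presence of inulin, 0 were called higher and 4 lower, with Batf2 at -2.39, Atf3 at -1.17, Ddit3 at -1.38 and Mafk at -1.49. In that comparison 8.66% of all genes were called higher and 7.99% lower, and 17.0% and 15.4% of those above background.

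Of the MAP kinase cascade, the enzymes that relay LPS signals to AP-1, 20 of 23 listed genes were measured and 19 were above background. In TsSP+LPS against LPS, 6 were called higher, 0 lower and 14 not, against 21.6% of genes above background called higher and 13.3% lower. The list median was 0.38, against 0.11 over all genes above background. Map4k4, a kinase at the top of the JNK branch, was 3.58-fold higher (log2 difference 1.84, SE 0.12, adjusted p = 1.71e-06). Its place among the closest profiles to Fos rests on the same arrays and is no separate result. Mapk14, which encodes p38 alpha, was 2.44-fold higher (1.29, SE 0.11) and its activator Map2k3 was 2.31-fold higher (1.21, SE 0.14). Mapk7, which encodes ERK5, was 1.60-fold higher (0.68, SE 0.12). With the fit restricted to genes above background, 12 were called higher, and 29.0% of genes were called higher in that fit. With inulin present, Map4k4 differed by 1.99, Mapk14 by 1.20 and Map2k3 by 1.11. There 6 genes were called higher and 1 lower (Rps6ka3, the gene of the ERK-activated kinase RSK2, at -0.56, adjusted p = 0.0202). Of genes above background, 17.0% were called higher and 15.4% lower in that comparison.

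Of 15 listed factors that act on the Fos and Jun promoters, 14 were measured, all above background. In TsSP+LPS against LPS 3 were called higher, 1 lower and 10 not, which is no more than the 21.6% and 13.3% of genes above background called in each direction. The list median was 0.13, close to the 0.11 over all genes above background. Elk3, a partner of SRF at CArG boxes, was 2.35-fold higher (log2 difference 1.23, adjusted p = 0.000205), and Mef2d, a MEF2 factor that acts on the Jun promoter, was 1.84-fold higher (0.88, adjusted p = 0.00161). Srf itself was 1.42-fold higher (0.50, adjusted p = 0.0244), but not without LPS replicate 1 or 3 or TsSP+LPS replicate 2 (adjusted p = 0.0548 to 0.1001). Mef2c was 1.51-fold lower (-0.60, adjusted p = 0.0353), but not without LPS replicate 2 or 3 or TsSP+LPS replicate 1 or 2 (adjusted p = 0.0798 to 0.117). The number called lower ranged from 0 to 4 when single arrays were left out. In Inulin+TsSP+LPS against Inulin+LPS, Srf did not pass (0.41, adjusted p = 0.0622), the 3 called higher were Elk3 (1.20), Mef2d (0.99) and Elk1 (0.88), and the 2 called lower were Mef2c (-0.73) and Mef2a (-0.60). Of genes above background, 17.0% were called higher and 15.4% lower in that comparison.

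Of 12 listed genes for the turnover of AP-1 proteins and mRNAs, 10 were measured, all above background. In TsSP+LPS against LPS 2 were called higher, 3 lower and 5 not, against 21.6% of genes above background called higher and 13.3% lower. Without LPS replicate 2, 1 was called lower. The list median was -0.23, against 0.11 over all genes above background. The family that binds AU-rich mRNAs and hastens their decay had calls in both directions: Zfp36l2 was 3.61-fold higher (log2 difference 1.85, adjusted p = 1.41e-06) and Zfp36l1 1.89-fold higher (0.92, adjusted p = 0.000389), while Zfp36, which encodes tristetraprolin, was 1.62-fold lower (-0.70, adjusted p = 0.00195). Fbxw7, part of a ubiquitin ligase for Jun, was 1.54-fold lower (adjusted p = 0.0255), a call lost without LPS replicate 2 or 3 or TsSP+LPS replicate 3. Sirt1, a deacetylase, was 1.43-fold lower (adjusted p = 0.0244), a call lost without LPS replicate 1 or 2 or TsSP+LPS replicate 1 or 2. In Inulin+TsSP+LPS against Inulin+LPS, Fbxw7 differed by -0.98 (adjusted p = 0.00187) and Sirt1 by -0.37 (adjusted p = 0.108), while Zfp36l2 differed by 1.50, Zfp36l1 by 1.03 and Zfp36 by -0.81.

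Of 29 listed genes known as AP-1 targets, 27 were measured and 21 were above background. In TsSP+LPS against LPS 2 were called higher, 10 lower and 15 not, at a median of -0.18. Called higher were 11.0% of all genes and 21.6% of those above background, and called lower 7.08% and 13.3%. The 21 listed genes above background had a median of -0.14, against 0.11 over all genes above background. Il23a, called lower, was above background on 1 of 3 LPS arrays and 0 of 3 TsSP+LPS arrays and has no fold. By smallest p the called genes were led by Tnf (log2 difference -2.61), Hmox1 (2.14), Il6 (-2.10) and Ccl2 (-1.69), which encode inflammatory cytokines, haem oxygenase and a chemokine. The other gene called higher was Mmp13, a collagenase gene that is a textbook AP-1 target, at 1.36-fold (0.44, SE 0.10, adjusted p = 0.0118). Named after their values were seen, Csf2, the GM-CSF gene, was at least 4.85-fold lower (adjusted p = 7.42e-06), with 0 of 3 TsSP+LPS arrays above background, and Plau, the urokinase gene, was at least 3.13-fold lower (adjusted p = 8.01e-05).

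**Figure D5:**
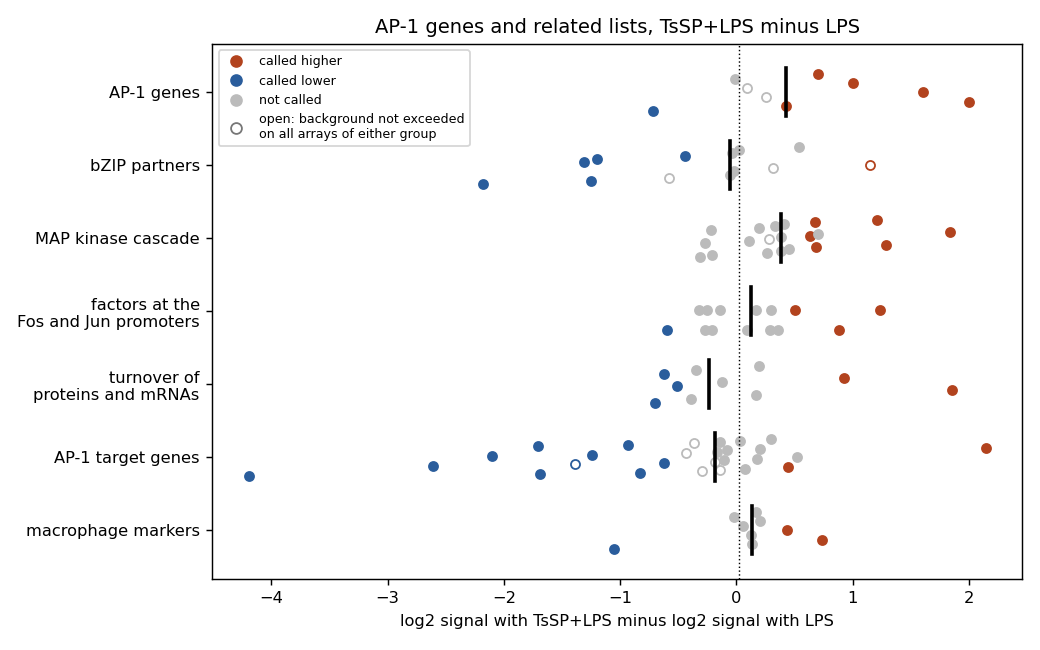
Log2 signal in TsSP+LPS minus that in LPS for each measured gene of 7 lists, 1 point a gene, with the black bar at the list median and the dotted line at the median of all genes. Open points are genes that were not above background on all arrays of either group, so their position is no measured fold, and the leftmost point, Csf2, is above background in LPS only. The AP-1 list has its median at 0.43, while the bZIP partners and target genes have theirs at -0.056 and -0.18.

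Of the 9 macrophage markers measured, 2 were called higher, 1 lower and 6 not in TsSP+LPS against LPS, shares close to the 21.6% and 13.3% of genes above background called in each direction. Itgam, which encodes CD11b, was 1.67-fold higher (adjusted p = 0.000388) and Adgre1, a macrophage surface receptor gene, was 2.08-fold lower (adjusted p = 0.00137). Lyz2, the lysozyme gene, was 1.36-fold higher (adjusted p = 0.0246), a call lost without any 1 LPS array or without TsSP+LPS replicate 2 or 3. The log2 of the summed marker signal lay at 19.23 to 19.28 on TsSP+LPS arrays and 19.01 to 19.09 on LPS arrays, and its part in the AP-1 differences was not tested. In the 5 related lists and the macrophage markers, 0 genes were called in either inulin comparison or in the interaction.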

How the data were processed

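RNA of RAW 264.7 cells was extracted on RNeasy columns and labelled with biotin for Affymetrix arrays, per the labels' protocols. The deposited table holds 1 log2 value per probe set and array. The log base was inferred from the range of values (1.32 to 18.94), and for the authors' background correction and normalization the sources name no method. Folds inherit whatever those steps did to bright and dim signals. Values were used as deposited. Of 28846 probe sets, 19572 had 1 gene symbol, 0 had several, and all 19572 matched RefSeq (GRCm38.p6) by gene number. The brightest probe set stood for each of 55 genes with several, leaving 19505 genes.

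One fit with limma 3.58.1 (R 4.3.3, functions lmFit and eBayes) gave each group a mean over the 12 arrays, with 8 residual degrees of freedom. Two-sided p-values were adjusted over the 19505 genes of each of 6 contrasts by the Benjamini-Hochberg method, and a gene was called at an adjusted p below 0.05. A fold is 2 raised to the log2 difference, with its standard error (SE) from the fit. A gene was above background in a group when it exceeded the brightest background probe on all 3 arrays. For a called gene above background in the brighter group but not in the dimmer group, "at least" gives a bound. It sets the brighter mean against the mean of, per array, the higher of that background and the gene's own signal. A gene above background in neither group has no fold. Signals of different probe sets were not compared. Plots used matplotlib 3.10.9 in Python 3.11.15, and the fit was tested on simulated data.

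Alternatives were quantile normalization, centring each array on its median, only genes above background, a mean-variance trend, the replicate number as a block, the mean of a gene's probe sets, and leaving out each array. Applying them to the related lists and neighbours was decided after seeing the data. The members and lists were chosen with earlier results of these data known. Named beside the members were up to 4 genes a list by smallest p (all called genes where 5 or fewer were counted), the 3 closest profiles and the chromosome 12 neighbours. Some listed genes are not analysed here.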

Additional observations from a re-analysis of the deposited data

How the results depend on the processing

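Fos, Fosl1, Jund and Junb kept direction and call in the 3 comparisons with and without TsSP under all alternatives. Of the members' log2 differences over all 6 contrasts and alternatives, 714 kept direction and side of the threshold, 17 lost a call, 7 gained one and 18 turned sign, all uncalled. Same-numbered arrays showed little shared deviation: of 18 such pairs, 1 had deviations correlated over 0.1 (-0.094 to 0.10). Low correlations do not settle whether arrays of the same number were handled together. With the replicate number as a block, Jun kept its difference but not its call against LPS, at an adjusted p of 0.0590 for TsSP+LPS and 0.0610 for Inulin+TsSP+LPS, the calls of Maf (adjusted p = 0.0559) and Tmed10 (0.0588) in TsSP+LPS against LPS were lost, and 3203 genes were called in TsSP+LPS against LPS. Members called higher in Inulin+TsSP+LPS against LPS numbered 3 to 5 when 1 array was left out, with 3 without LPS replicate 1 or Inulin+TsSP+LPS replicate 2 or 3. In Inulin+TsSP+LPS against Inulin+LPS they numbered 5, not 3, with only genes above background or with a mean-variance trend. The first of these fits tested fewer genes, and both had a smaller SE for Fosl2 (0.149 and 0.130, against 0.163). Of all genes, 1689 were called higher in this comparison in the main fit, and 1298 to 2126 over all alternatives. With only genes above background, 23.5% of the genes fitted were called higher. The cause of the added calls was not tested. In the same comparison Fosl2 also passed under quantile normalization (0.54, adjusted p = 0.0379) and without LPS replicate 1 or Inulin+TsSP+LPS replicate 1. With centring, Jun missed the threshold in Inulin+TsSP+LPS against LPS (0.37, adjusted p = 0.0515). Quantile normalization turned the sign of Jdp2 in Inulin+LPS against LPS (-0.0077), of Jun in Inulin+TsSP+LPS against TsSP+LPS (0.027) and of the Fos interaction (0.046). Leaving out 1 array turned signs near 0: for Jdp2, ranges were -0.083 to 0.027 in TsSP+LPS against LPS, -0.045 to 0.077 in Inulin+LPS against LPS and -0.10 to 0.022 in Inulin+TsSP+LPS against TsSP+LPS. In Inulin+LPS against LPS, Fosl2 ranged from -0.027 to 0.16 and Jun from -0.020 to 0.16. Jun ranged from -0.045 to 0.051 in Inulin+TsSP+LPS against TsSP+LPS, and the interaction from -0.16 to 0.019 for Jun and -0.20 to 0.13 for Fos. The cause of these turns was not tested. Under quantile normalization and centring, the median over all genes of the change in log2 difference lay between -0.056 and 0.015, depending on the contrast. Genes called in TsSP+LPS against LPS numbered 2753 to 4283 over all alternatives, with 1671 to 2645 called higher and 1082 to 1638 lower. In the related lists, genes called in TsSP+LPS against LPS numbered 2 in place of 1 for bZIP partners higher (trend, or without LPS replicate 3), 4 in place of 2 for targets higher (trend) and 1 in place of 3 for turnover lower (without LPS replicate 2). Fosb and Batf could not be measured above background, and the log base and normalization of the deposited values limit every fold.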
